A study of Mus musculus with 20 samples.

Results

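The heat shock proteins and related chaperones described here were 76 of the 19938 genes measured in mouse gastrocnemius, a calf muscle made mostly of fast fibres. The rule that takes them reads gene symbols and no values. The symbols were those of the HSP90, HSP70 and HSP110 families, the small heat shock proteins, the DNAJ co-chaperones of classes A, B and C, and the subunits of the cytosolic chaperonin CCT, with Hspa9 and Dnajc19 set apart. HSP90 had 2 members here, HSP70 had 11, HSP110 had 1 and the small heat shock proteins had 8. Families follow the symbols, so HSP70 includes Hspa4 and Hspa4l, which are of the HSP110 type. DNAJA had 4, DNAJB 13, DNAJC 27 and CCT 8. The same symbol pattern also took Hspbp1 and Hspbap1, 2 proteins named for binding HSP70 and HSP27.

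The study measured 20 muscle samples of adult male C57BL/6 mice on whole-transcript gene arrays, in 4 groups of 5. The NCoR1-MKO mice lacked the nuclear receptor corepressor NCoR1 in muscle, and CON mice were their controls. The PGC-1alpha-mTg mice carried a transgene for the transcriptional coactivator PGC-1alpha in muscle, and their controls were WT, labelled wild type. The comparisons ask how muscle gene expression changes without the corepressor and with more of the coactivator, each against its own controls. The promoter that drove the transgene, the means of the knockout and the genotype of the CON mice are not given in the sources used here. All values are log2 expression values made by robust multi-array averaging (RMA). All changes are differences between group means on that scale, given with the standard error (SE) of the fit. A gene was called higher or lower when its p-value from limma was under 0.05 after Benjamini-Hochberg adjustment across the whole set of genes. Levels were not compared between genes, whose probes differ, or between the pairs of groups, which appear to have been normalized separately.

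Chaperones help proteins to fold, assemble and refold, and hand over those beyond repair for degradation. HSP70 proteins bind exposed stretches of unfolded protein in a cycle driven by ATP. DNAJ proteins start that cycle and bring in clients, and nucleotide exchange factors such as HSP110 close it. HSP90 finishes folding many kinases and receptors, CCT encloses newly made actin and tubulin, and small heat shock proteins hold damaged proteins until HSP70 takes them over. In muscle these proteins guard the contractile lattice and its Z-discs, and the small heat shock proteins are abundant there. Heat shock factor 1 (HSF1) induces many of them through heat shock elements, which are inverted repeats of a short motif in the promoter. The endoplasmic reticulum (ER) and the mitochondria have chaperones of their own, and PGC-1alpha is known as a regulator of mitochondrial content.

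The promoters of 7 members are printed here as picked examples, and they do not stand for the other members. Each runs from 250 bases before to 50 bases after an annotated start, from RefSeq on assembly GRCm38.p6. Sequences read 5′ to 3′ on the strand of the gene. Capitals mark matches to a pair of heat shock motifs in opposite orientation, head to head (GAANNTTC) or tail to tail (TTCNNGAA). Hspa1l and Hspa1a are shown as neighbours whose starts lie 547 bases apart and point away from each other. Hspa1l lies at chr17:34972453-34972752 on the plus strand and Hspa1a at chr17:34972107-34972406 on the minus strand. Hsph1 (chr5:149636266-149636565, minus strand), Hspb8 (chr5:116422815-116423114, minus strand) and Cct2 (chr10:117063326-117063625, minus strand) are shown as members lower in PGC-1alpha-mTg whose promoters hold a match. Dnajc28 (chr16:91618950-91619249, minus strand) and Dnajc15 (chr14:77874868-77875167, minus strand) are shown as members among the most raised there.
Hspa1l: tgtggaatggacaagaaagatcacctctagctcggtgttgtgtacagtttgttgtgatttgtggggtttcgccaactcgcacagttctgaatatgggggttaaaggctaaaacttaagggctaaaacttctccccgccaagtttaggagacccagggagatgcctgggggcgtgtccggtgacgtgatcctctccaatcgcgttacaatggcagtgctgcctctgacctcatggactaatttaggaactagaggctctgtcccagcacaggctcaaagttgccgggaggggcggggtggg
Hspa1a: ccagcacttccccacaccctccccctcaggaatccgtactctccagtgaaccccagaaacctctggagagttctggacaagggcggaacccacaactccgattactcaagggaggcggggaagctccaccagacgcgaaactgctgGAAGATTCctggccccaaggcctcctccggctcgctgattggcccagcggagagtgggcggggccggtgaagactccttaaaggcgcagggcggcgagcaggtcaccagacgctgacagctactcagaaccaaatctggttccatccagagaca
Hsph1: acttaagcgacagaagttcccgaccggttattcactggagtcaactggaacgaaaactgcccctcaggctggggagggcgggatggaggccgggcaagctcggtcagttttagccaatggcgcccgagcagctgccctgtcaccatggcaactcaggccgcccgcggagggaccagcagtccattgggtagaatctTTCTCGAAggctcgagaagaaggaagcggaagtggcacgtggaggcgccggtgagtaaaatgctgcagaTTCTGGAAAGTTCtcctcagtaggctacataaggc
Hspb8: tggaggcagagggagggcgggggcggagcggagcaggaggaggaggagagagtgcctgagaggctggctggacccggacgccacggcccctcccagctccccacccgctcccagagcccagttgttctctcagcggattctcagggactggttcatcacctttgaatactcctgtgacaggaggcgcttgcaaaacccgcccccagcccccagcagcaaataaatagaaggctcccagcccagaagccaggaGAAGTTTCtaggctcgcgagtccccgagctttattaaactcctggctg
Cct2: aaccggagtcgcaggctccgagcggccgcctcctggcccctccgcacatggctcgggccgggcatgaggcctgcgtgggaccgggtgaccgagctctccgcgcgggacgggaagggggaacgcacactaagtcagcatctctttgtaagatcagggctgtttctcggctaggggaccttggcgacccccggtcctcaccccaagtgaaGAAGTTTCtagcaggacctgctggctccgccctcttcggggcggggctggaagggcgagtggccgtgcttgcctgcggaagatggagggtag
Dnajc28: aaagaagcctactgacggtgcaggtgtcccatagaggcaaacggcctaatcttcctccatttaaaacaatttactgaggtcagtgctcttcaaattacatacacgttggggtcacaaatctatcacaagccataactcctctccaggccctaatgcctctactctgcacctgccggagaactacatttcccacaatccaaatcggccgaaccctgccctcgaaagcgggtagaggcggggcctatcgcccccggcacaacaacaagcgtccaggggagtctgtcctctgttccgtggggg
Dnajc15: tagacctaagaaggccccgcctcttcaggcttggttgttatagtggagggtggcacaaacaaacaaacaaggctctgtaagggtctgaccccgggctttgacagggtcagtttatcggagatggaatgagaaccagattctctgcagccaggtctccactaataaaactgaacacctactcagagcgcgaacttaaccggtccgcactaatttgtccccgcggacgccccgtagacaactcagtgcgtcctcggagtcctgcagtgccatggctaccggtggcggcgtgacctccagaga

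In these windows the Hspa1a promoter held 1 match, whose first base lay 104 bases before the start. The Hspa1l promoter held none. Hsph1 held 3 matches, and 2 of these overlapped in the stretch that begins 15 bases after the start. In Hspb8 the match began 2 bases after the start, and in Cct2 42 bases before it. Neither Dnajc28 nor Dnajc15 held a match. Dnajc27, also raised but not printed, held a match whose first base lay 213 bases before the start. Cct2 has a second promoter in the table, at chr10:117063803-117064102, which held no match to the pair. A match is a stretch of letters and does not show that a factor binds there.

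The transgene was checked through Ppargc1a, the gene of PGC-1alpha, which ran from 9.38 to 9.75 in WT and from 11.36 to 11.53 in PGC-1alpha-mTg. It was not called in NCoR1-MKO, at -0.10 ± 0.07 (SE). Ncor1 is not analysed here. Arrays of a group correlated at 0.992 or more with each other, and 0 pairs held identical values. Nothing in the labels states that every array stems from a different mouse. The p-values therefore gauge the scatter among the arrays, some of which may be technical. Whole muscle was measured, so fewer cells of a type and less RNA per cell cannot be told apart.

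In NCoR1-MKO 2 of the 76 members passed the test and both were higher, Dnaja3 and Dnaja4. That is 2.63% of the members, beside 2.63% of all genes. The changes of the members ran from -0.16 to 0.23, with a median of 0.00, as over all genes. In simulated data the fit recovered 38% of changes of 0.2 in this comparison, so a change of that size can go uncalled.

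In PGC-1alpha-mTg 34 of the 76 members passed the test, 13 higher and 21 lower. That is 44.7% of the members, beside 28.0% of all genes. The higher calls were 17.1% of members against 11.9% of all genes, and the lower calls 27.6% against 16.1%. Dim genes are called less often, and 67 of the 76 members lay outside the dimmest 40 percent. Among genes outside it, 50.7% of those members and 45.6% of all such genes were called, so the members' share lay near that of well-detected genes. Their median change was -0.03, beside 0.02 over all genes. All calls among the CCT subunits, the small heat shock proteins and the DNAJB class were lower. The largest rises were in the DNAJC class, the HSP70 family as set by symbol (Hspa4l) and the mitochondrial member of DNAJA. The counts by family and list below are small and stand beside these shares of all genes.

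**Figure D1:**
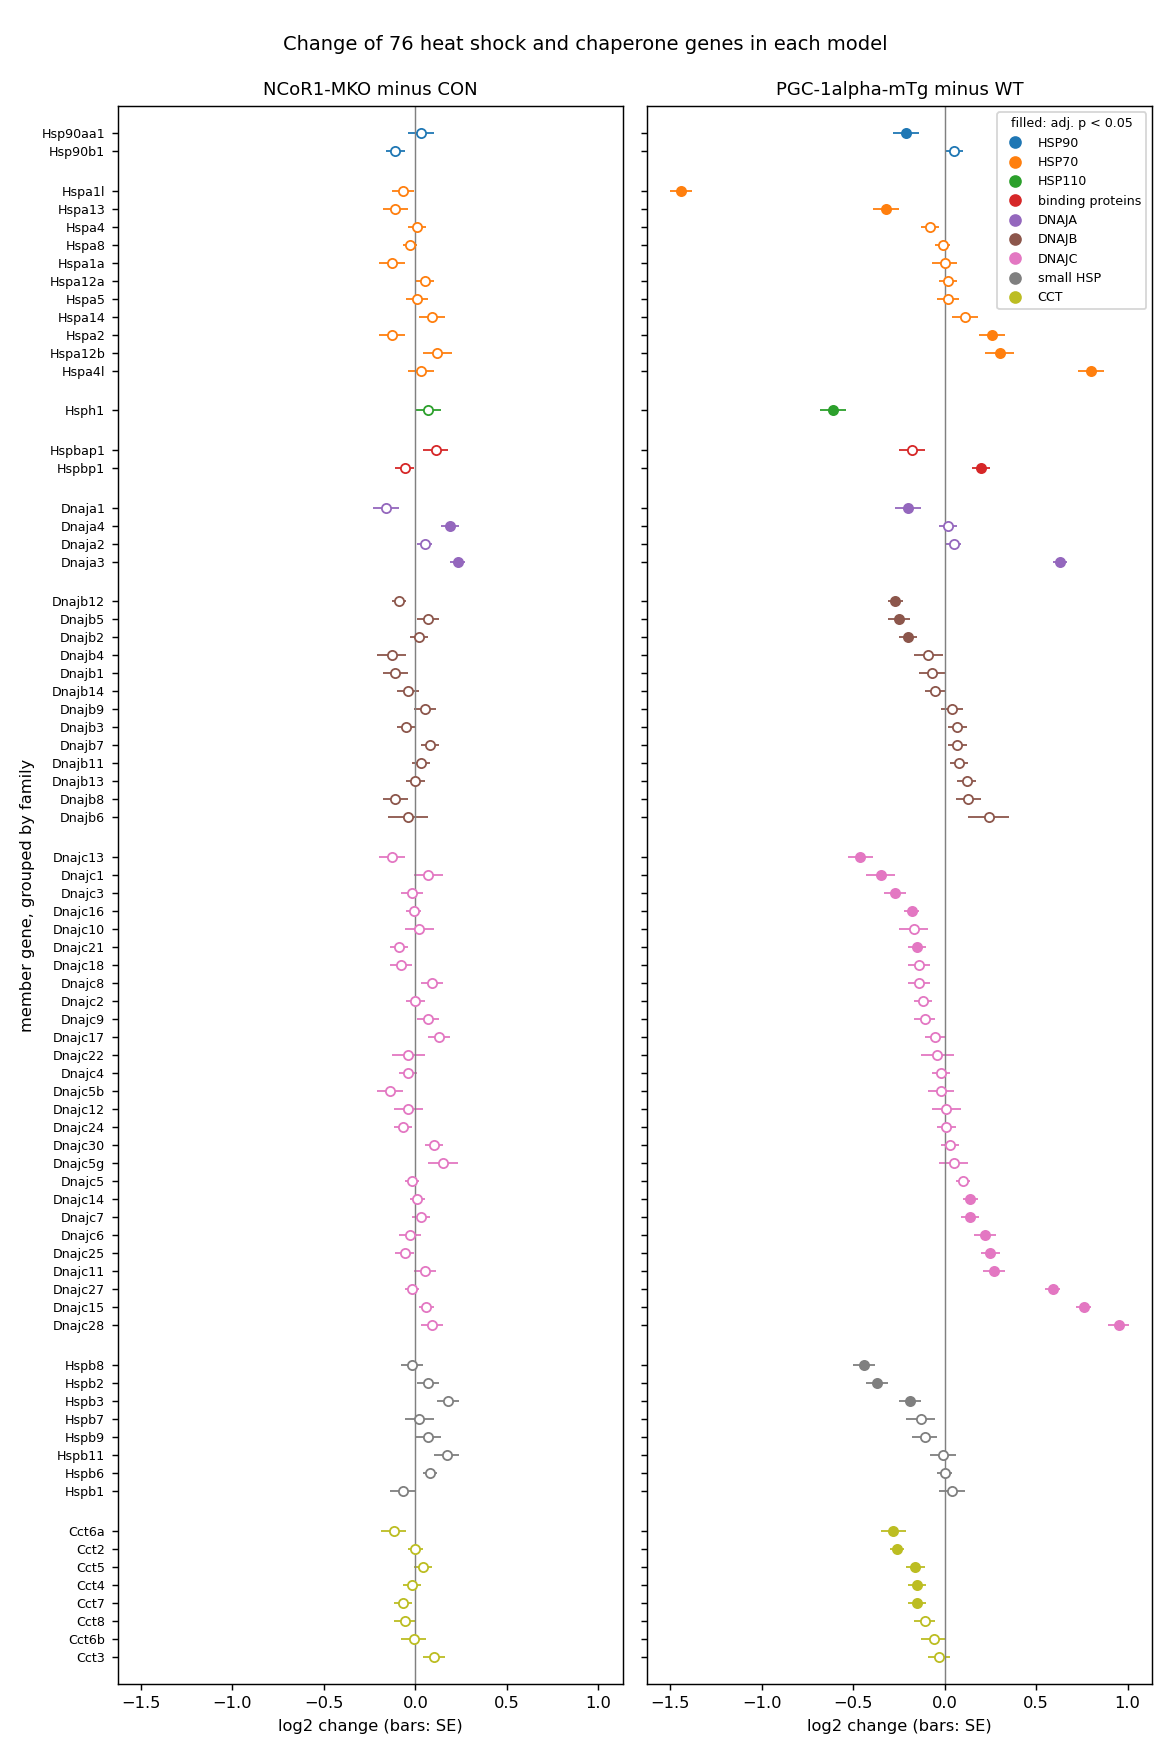
Change of each of the 76 members (log2, with SE bars) in NCoR1-MKO against CON on the left and in PGC-1alpha-mTg against WT on the right, grouped and coloured by family, with filled points for an adjusted p under 0.05. The left panel holds 2 filled points, and the right panel runs from Hspa1l at -1.44 to Dnajc28 at 0.95.

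Hspa1l, an HSP70 protein known mainly from the testis, showed the largest change of any member. Its values were 9.36, 9.18, 9.17, 9.35 and 9.24 in the 5 WT arrays and 7.77, 7.66, 7.67, 7.95 and 8.03 in the PGC-1alpha-mTg arrays. Every transgenic array lay over 1 log2 unit below every WT array. Hspa1l fell by 1.44 ± 0.06 (SE), which is 2.72-fold (limma, adjusted p = 2.53e-13). In CON its values were 9.87, 9.92, 9.73, 9.76 and 9.89, and in NCoR1-MKO 9.84, 9.74, 9.76, 9.72 and 9.73. Those groups overlapped, and the change of -0.07 ± 0.06 was not called. Of the 8 members listed as known mainly from testis, a list that leaves out Hspa2, Hspa1l alone was called in PGC-1alpha-mTg. The median of the 8 was 0.02. The others averaged from 3.79 (Dnajb3) to 6.52 (Hspb9) over all arrays, and the dimmest of them have little room to fall.

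The neighbour of Hspa1l, Hspa1a, encodes the classical heat-inducible HSP70. Its own probe set read 7.11, 6.94, 6.94, 7.18 and 7.14 in WT and 6.86, 7.01, 7.04, 7.29 and 7.12 in PGC-1alpha-mTg. The groups overlapped throughout, and the change was 0.00 ± 0.07. A second probe set, annotated to both Hspa1a and its near-identical copy Hspa1b, was not among the genes tested by symbol. It read 9.19, 9.09, 8.96, 9.08 and 9.27 in WT and 8.70, 8.77, 8.88, 8.89 and 8.62 in the transgenic arrays, with no overlap. That probe set fell by 0.35 ± 0.06 (adjusted p = 8.42e-05), and its change in NCoR1-MKO was -0.05 ± 0.06. The probe sets of the inducible HSP70 genes thus gave different changes, and the array does not say which copy the shared one reports.

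Hspa4l, an HSP110-type nucleotide exchange factor of the HSP70 cycle, was 6.47, 6.37, 6.47, 6.36 and 6.45 in WT. In PGC-1alpha-mTg it was 7.09, 7.06, 7.08, 7.34 and 7.55. The transgenic values all lay above the WT values and spread more widely, with the highest in replicates 4 and 5. Hspa4l rose by 0.80 ± 0.07, or 1.74-fold (adjusted p = 1.52e-08). Its paralog Hspa4, with the same function, was not called at -0.08 ± 0.05. Hsph1, the third exchange factor of that type, moved the other way. It read 8.82, 8.86, 8.57, 8.61 and 8.70 in WT and 7.99, 8.20, 8.0, 8.35 and 7.98 in PGC-1alpha-mTg, again without overlap. Hsph1 fell by 0.61 ± 0.07, or 1.53-fold (adjusted p = 6.7e-07). In NCoR1-MKO Hspa4l stood at 0.03 ± 0.07, Hspa4 at 0.01 ± 0.05 and Hsph1 at 0.07 ± 0.07, none of them called.

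**Figure D2:**
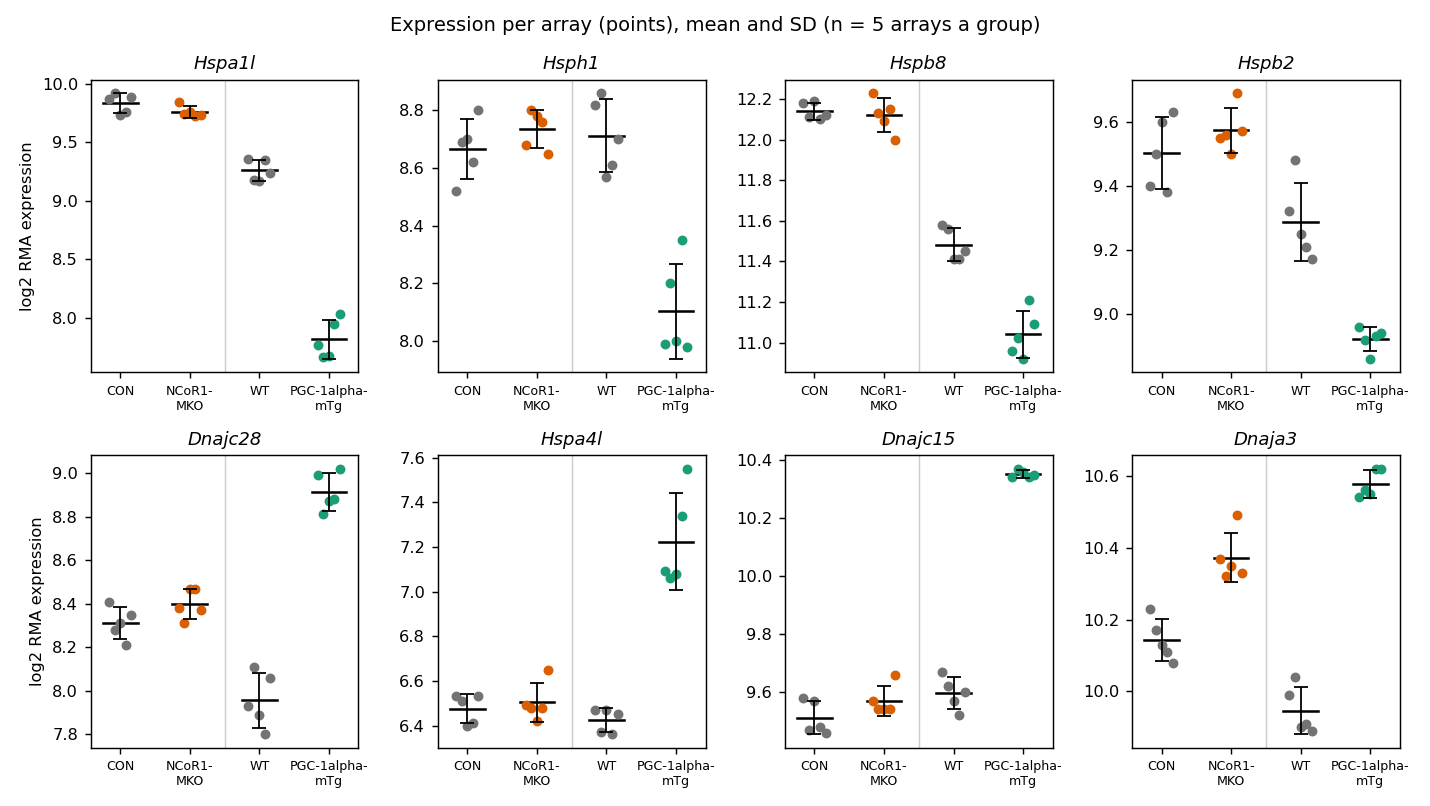
Expression (log2 RMA value, each panel with its own axis) of 8 members in every array of the 4 groups, with points for arrays and a line and bar for the mean and SD of 5 arrays. Hspa1l, Hsph1, Hspb8 and Hspb2 lie below WT in all PGC-1alpha-mTg arrays, Dnajc28, Hspa4l, Dnajc15 and Dnaja3 lie above it, and Dnaja3 alone among the 8 also separates NCoR1-MKO from CON.

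Of the other HSP70 members, Hspa13, an ER-linked ATPase with a shortened HSP70 fold, was 7.79, 7.75, 7.85, 7.82 and 7.83 in WT. It was 7.43, 7.33, 7.35, 7.59 and 7.74 in PGC-1alpha-mTg. The groups nearly met through transgenic replicate 5, and Hspa13 fell by 0.32 ± 0.07 (adjusted p = 0.00111). Hspa2, known for its part in sperm formation, was 6.78, 6.60, 6.57, 6.63 and 6.71 in WT and 7.03, 6.76, 6.87, 6.96 and 6.97 in the transgenic arrays. The ranges overlapped at 1 array of each group, and Hspa2 rose by 0.26 ± 0.07 (adjusted p = 0.00883). Hspa12b, a distant HSP70 relative known from endothelial cells, was 7.41, 7.30, 7.36, 7.27 and 7.44 in WT and 7.67, 7.51, 7.47, 7.64 and 7.97 in PGC-1alpha-mTg. The groups did not overlap, and it rose by 0.30 ± 0.08 (adjusted p = 0.00574). Of 12 endothelial marker genes 10 were also higher in PGC-1alpha-mTg, with a median change of 0.39. The mean of those markers ran from 8.45 to 8.64 in WT and from 8.79 to 9.03 in PGC-1alpha-mTg. Their part in the change of Hspa12b was not tested.

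The constitutive chaperones of the HSP70 family were not called. Hspa8, the main cytosolic HSP70 of unstressed cells, ran from 12.39 to 12.48 in WT and from 12.36 to 12.45 in PGC-1alpha-mTg, a change of -0.01 ± 0.04. After quantile normalization of all arrays it was called lower, at -0.15 ± 0.04 (adjusted p = 0.00357). Hspa5, the HSP70 of the ER lumen, changed by 0.02 ± 0.06. Hspa12a (0.02 ± 0.05) and Hspa14 (0.11 ± 0.07), a partner of the ribosome, were not called either. In all, 3 members with HSP70 symbols rose, Hspa4l among them, 2 fell and 6 were not called. In NCoR1-MKO 0 of 11 were called, with changes from -0.13 to 0.12.

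Of the binding proteins, Hspbp1, a cytosolic nucleotide exchange factor for HSP70, was 8.85, 8.79, 8.67, 8.58 and 8.66 in WT. In PGC-1alpha-mTg it was 8.85, 8.86, 8.87, 8.92 and 9.05. The ranges met at a single value, with WT replicate 1 as high as the lowest transgenic array, and Hspbp1 rose by 0.20 ± 0.05 (adjusted p = 0.00352). Hspbap1 stood at -0.18 ± 0.07 and was not called (adjusted p = 0.0693), and after quantile normalization it was, at -0.22 ± 0.08 (adjusted p = 0.0412).

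Hsp90aa1, the inducible cytosolic HSP90, read 8.62, 8.39, 8.30, 8.41 and 8.40 in WT and 8.01, 8.20, 8.15, 8.41 and 8.30 in PGC-1alpha-mTg. The groups overlapped, and the mean fell by 0.21 ± 0.07 (adjusted p = 0.0225). The call was lost without WT replicate 1, without PGC-1alpha-mTg replicate 1 and without PGC-1alpha-mTg replicate 3, with changes from -0.26 to -0.16 over the arrays left out in turn. It was also lost after quantile normalization of all arrays, at -0.16 ± 0.07 (adjusted p = 0.077), with only the 10 arrays of the comparison and with array weights. The 3 probe sets of the gene gave changes of -0.21, -0.25 and -0.21. Hsp90b1, the HSP90 of the ER, was not called at 0.05 ± 0.05.

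For 4 members with several probe sets, the brightest carries a number that lies among genes of another chromosome. These are Hsp90aa1, Hspa8, Hspb1 and Dnaja1. With the probe set numbered among genes of the own chromosome in its place, 13 members were higher and 20 lower in PGC-1alpha-mTg. The member that left the count was Dnaja1, whose probe sets both changed by -0.20, with SEs of 0.07 and 0.09. A further probe set, annotated to Dnaja1 and Mir207 and so not among the genes tested by symbol, stood at 0.09 ± 0.09 and was not called. Hspa8 (0.01) and Hspb1 (0.05) remained uncalled with the probe set of the own chromosome. Probe sets annotated to Hspa8 together with Snord14c and Snord14d were also outside the genes tested by symbol. They stood at 0.64 ± 0.27 and 0.65 ± 0.27 in PGC-1alpha-mTg and were not called.

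**Figure D3:**
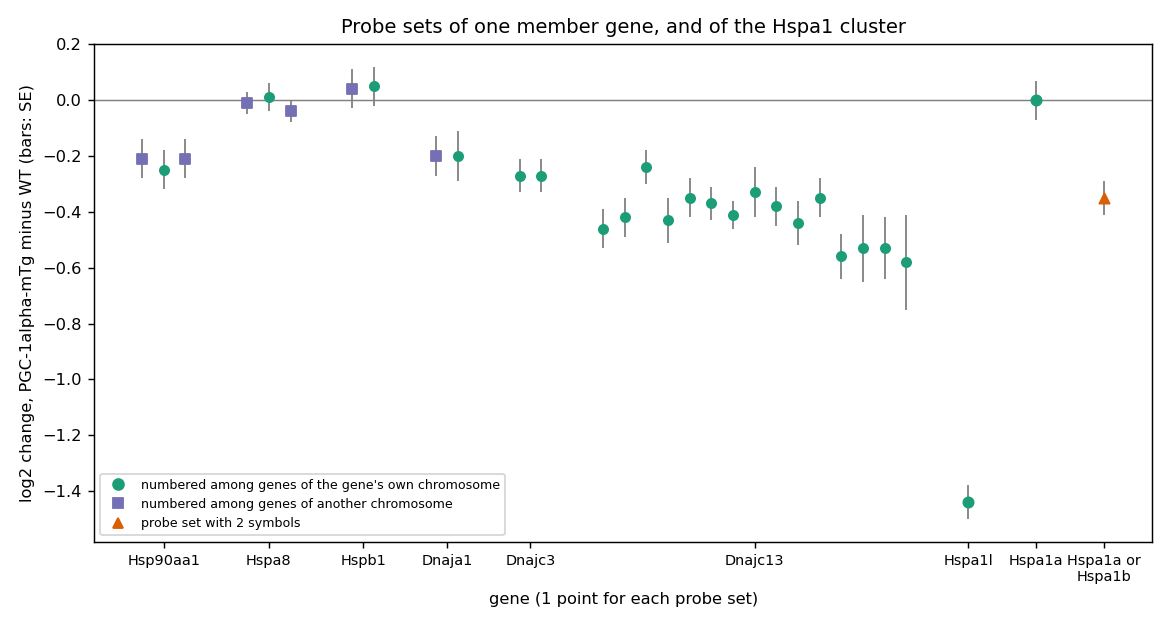
Change in PGC-1alpha-mTg against WT (log2, with SE bars) for each probe set of the members that have several, and for Hspa1l, Hspa1a and the probe set shared by Hspa1a and Hspa1b. The 15 probe sets of Dnajc13 all lie between -0.58 and -0.24, and the points of Hspa1a and of the shared probe set stand apart at 0.00 and -0.35.

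DNAJ proteins carry a J domain that triggers ATP hydrolysis by HSP70, and the rest of each protein sets where it acts. Of the 4 largest rises of the whole set 3 belonged to DNAJ proteins of the mitochondria. Dnajc28, listed here as mitochondrial and little characterised, was 7.93, 8.11, 7.89, 7.80 and 8.06 in WT and 8.99, 8.81, 8.87, 8.88 and 9.02 in PGC-1alpha-mTg. Every transgenic array lay above every WT array, and Dnajc28 rose by 0.95 ± 0.06, or 1.94-fold (adjusted p = 2.16e-11). Dnajc15, an inner membrane protein known as a brake on respiration, was 9.67, 9.62, 9.57, 9.52 and 9.60 in WT. Its transgenic values were 10.34, 10.37, 10.36, 10.34 and 10.35, which lay close together and far above WT. Dnajc15 rose by 0.76 ± 0.04, or 1.69-fold (adjusted p = 2.04e-12).

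Dnaja3, the J protein partner of the HSP70 of the mitochondrial matrix, was 9.99, 10.04, 9.90, 9.91 and 9.89 in WT. It was 10.54, 10.56, 10.55, 10.62 and 10.62 in PGC-1alpha-mTg. The groups were well apart, and Dnaja3 rose by 0.63 ± 0.04, or 1.55-fold (adjusted p = 1.73e-10). Dnajc11, a protein of the complex that shapes the inner membrane, was 8.02, 7.95, 7.96, 7.90 and 8.04 in WT and 8.35, 8.13, 8.21, 8.16 and 8.36 in the transgenic arrays. It rose by 0.27 ± 0.06 (adjusted p = 0.000737) without overlap. The other mitochondrial members were not called, Dnajc30 at 0.03 ± 0.05 and Dnajc4 at -0.02 ± 0.05. Of the 6 mitochondrial members 4 rose and 0 fell, with a median of 0.45.

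Dnaja3 also had the smallest p of the members in NCoR1-MKO. Its values were 10.23, 10.17, 10.13, 10.11 and 10.08 in CON and 10.37, 10.32, 10.35, 10.49 and 10.33 in NCoR1-MKO, with no overlap. It rose by 0.23 ± 0.04, or 1.17-fold (adjusted p = 0.00391). The rise in PGC-1alpha-mTg was larger, by 0.40 ± 0.06 (adjusted p of the difference = 6.58e-05). Dnaja4, a cytosolic J protein of the same class, was 9.0, 9.05, 8.89, 9.02 and 8.85 in CON and 9.19, 9.11, 9.12, 9.07 and 9.27 in NCoR1-MKO. The groups did not overlap, and Dnaja4 rose by 0.19 ± 0.05 (adjusted p = 0.0378). That call was lost when any 1 of CON replicates 3 and 5 or NCoR1-MKO replicates 1, 2, 3 and 5 was left out, with adjusted p up to 0.115. It was also lost with each array centred on its median, at an adjusted p of 0.0697, and with only the 10 arrays of the comparison, at 0.102. In PGC-1alpha-mTg Dnaja4 stood at 0.02 ± 0.05. The 5 other mitochondrial members were not called in NCoR1-MKO, with Dnajc15 at 0.06 ± 0.04 and Dnajc28 at 0.09 ± 0.06.

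Outside the mitochondria, Dnajc27, a small GTPase with a J domain, was 9.09, 8.99, 8.95, 9.05 and 9.06 in WT and 9.71, 9.60, 9.57, 9.61 and 9.64 in PGC-1alpha-mTg. The groups were apart, and Dnajc27 rose by 0.59 ± 0.04, or 1.51-fold (adjusted p = 2.46e-10). Dnajc25 (0.25 ± 0.05), Dnajc6 (0.22 ± 0.06), Dnajc14 (0.14 ± 0.04) and Dnajc7 (0.14 ± 0.05) rose by less. Dnajc6 is auxilin, which strips clathrin from vesicles, and Dnajc7 bridges HSP70 and HSP90. The call of Dnajc14 was lost without PGC-1alpha-mTg replicate 1 and with only the 10 arrays of the comparison in the fit (adjusted p up to 0.0528). That of Dnajc7 was lost when any 1 of WT replicates 1, 2, 4 and 5 or PGC-1alpha-mTg replicates 1 and 5 was left out, after centring each array, with only the 10 arrays and with array weights (adjusted p up to 0.102). Dnajc13, an endosomal protein that sorts membrane cargo, was 9.27, 9.22, 9.20, 9.21 and 9.23 in WT and 8.79, 8.67, 8.55, 8.79 and 9.02 in the transgenic arrays. All transgenic arrays were lower, replicate 5 least. Dnajc13 fell by 0.46 ± 0.07, or 1.37-fold (adjusted p = 2.43e-05). Its 15 probe sets were all called lower, with changes from -0.58 to -0.24, and 0 of the 15 were called in NCoR1-MKO. These probe sets share 1 gene and the same arrays and are not replicates.

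Dnajc1, an ER membrane protein that recruits Hspa5 to ribosomes, was 6.89, 6.68, 6.82, 6.73 and 6.98 in WT and 6.52, 6.36, 6.21, 6.53 and 6.73 in PGC-1alpha-mTg. The groups overlapped at their edges, and it fell by 0.35 ± 0.08 (adjusted p = 0.00189). Dnajc3, an ER partner of Hspa5 that dampens the stress kinase PERK, fell by 0.27 ± 0.06. With Hspa13 these made 3 falls and 0 rises among the 8 members listed as ER. The list leaves out Dnajb12, which fell, and Dnajc14, which rose. Hspa5, Hsp90b1, Dnajb9, Dnajb11 and Dnajc10 were not called, with changes from -0.17 to 0.08. In NCoR1-MKO 0 of the 8 were called.

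In the DNAJB class 3 of 13 members fell and 0 rose in PGC-1alpha-mTg, beside 16.1% of all genes lower. Dnajb12, an ER membrane protein that helps to clear misfolded membrane proteins, was 8.96, 9.0, 8.97, 8.85 and 8.90 in WT and 8.71, 8.65, 8.74, 8.67 and 8.56 in PGC-1alpha-mTg. The groups did not overlap, and it fell by 0.27 ± 0.04 (adjusted p = 3.44e-05). Dnajb5 fell by 0.25 ± 0.06, and Dnajb2, which carries ubiquitin-binding motifs and passes clients to the proteasome, fell by 0.20 ± 0.05. Dnajb1, the heat-inducible partner of HSP70, was not called at -0.07 ± 0.07. Dnajb6, whose variants cause a limb-girdle muscular dystrophy, read between 5.51 and 6.19 in these arrays and changed by 0.24 ± 0.11, which was not called. The 4 probe sets that Dnajb6 shares with another symbol changed by 0.05 to 0.09, and none was called. In DNAJC as a whole 8 of 27 rose and 5 fell. The count of 5 was 8 without PGC-1alpha-mTg replicate 5 and with array weights. Besides Dnajc13, Dnajc1 and Dnajc3, the falls were those of Dnajc16 (-0.18 ± 0.04) and Dnajc21 (-0.15 ± 0.05), a factor in ribosome maturation. The call of Dnajc21 was lost when any 1 of WT replicates 2, 3 and 5 or PGC-1alpha-mTg replicates 2, 3 and 4 was left out, and after quantile normalization (adjusted p up to 0.105). In DNAJA, Dnaja1 fell by 0.20 ± 0.07 (adjusted p = 0.0449). That call was lost when any 1 of CON replicates 2, 3 and 4, NCoR1-MKO replicates 2 and 4, WT replicates 1, 3, 4 and 5 or PGC-1alpha-mTg replicates 1 and 3 was left out, with adjusted p up to 0.147. It was also lost after quantile normalization, with only the 10 arrays of the comparison, with array weights and with the other probe set (adjusted p up to 0.171). Dnaja2 stood at 0.05 ± 0.04.

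Small heat shock proteins form large assemblies that hold unfolding proteins, in muscle mainly at the Z-disc and on filaments. Hspb8, which works with the co-chaperone Bag3 in the autophagic removal of damaged filamin, was 11.58, 11.56, 11.41, 11.41 and 11.45 in WT. In PGC-1alpha-mTg it was 10.96, 11.02, 10.92, 11.21 and 11.09. Every transgenic array lay below every WT array, and Hspb8 fell by 0.44 ± 0.06, or 1.36-fold (adjusted p = 1.4e-06). Hspb2, a muscle protein that pairs with Hspb3, was 9.32, 9.48, 9.25, 9.21 and 9.17 in WT and 8.96, 8.92, 8.86, 8.93 and 8.94 in PGC-1alpha-mTg. The groups did not overlap, and Hspb2 fell by 0.37 ± 0.06 (adjusted p = 3.84e-05). Hspb3 fell by 0.19 ± 0.06 (adjusted p = 0.0223), with overlap. Its call was lost after quantile normalization, with only the 10 arrays of the comparison and without any 1 of WT replicates 1, 2 and 4 or PGC-1alpha-mTg replicate 4 (adjusted p up to 0.0814).

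In all, 3 of the 8 small heat shock proteins fell and 0 rose, and 2 fell after quantile normalization. Over all genes 16.1% were lower. The median change was -0.12. Hspb6 changed by 0.00 ± 0.04, Hspb1, the protein also named HSP27, by 0.04 ± 0.07 and Hspb7 by -0.13 ± 0.08, and none of these was called. Cryab, a small heat shock protein outside the symbol pattern and the known head-to-head neighbour of Hspb2, changed by 0.01 ± 0.04. Hspb9 (-0.11 ± 0.07) and Hspb11, which belongs to the transport machinery of cilia, at -0.01 ± 0.07, were not called. In NCoR1-MKO 0 of 8 were called, with Hspb8 at -0.02 ± 0.06 and Hspb2 at 0.07 ± 0.06.

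Slow fibres are rich in several small heat shock proteins, and 6 of 9 slow fibre markers were lower in PGC-1alpha-mTg, while 1 was higher. The mean of the 9 ran from 9.53 to 10.09 in WT and from 8.63 to 9.52 in PGC-1alpha-mTg. In NCoR1-MKO 2 of the 9 were lower and the mean ran from 8.44 to 9.57, against 9.19 to 10.18 in CON. The median change of these markers was -0.66 in NCoR1-MKO and -0.68 in PGC-1alpha-mTg. Of 10 fast fibre markers 5 were lower and 1 higher in PGC-1alpha-mTg, with a median of -0.09. Their part in the changes of the members was not tested.

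CCT is a double ring built of paralogous subunits that folds actin, tubulin and other proteins. In PGC-1alpha-mTg 5 of the 8 genes fell and 0 rose, and the change of every one of the 8 was below 0, with a median of -0.15. Cct6a was 10.31, 10.23, 10.24, 10.35 and 10.30 in WT and 9.93, 9.99, 9.98, 10.12 and 10.02 in PGC-1alpha-mTg, without overlap. It fell by 0.28 ± 0.07 (adjusted p = 0.00232). Cct2 was 10.10, 10.03, 10.08, 10.03 and 9.96 in WT and between 9.75 and 9.81 in all transgenic arrays. Cct2 fell by 0.26 ± 0.04 (adjusted p = 3.23e-05). Cct5 (-0.16 ± 0.05), Cct4 (-0.15 ± 0.05) and Cct7 (-0.15 ± 0.05) fell by less, each 1.11-fold or 1.12-fold. The call of Cct5 was lost without WT replicate 2 or PGC-1alpha-mTg replicate 3 (adjusted p up to 0.0668). That of Cct7 was lost without any 1 of WT replicates 1 and 2 or PGC-1alpha-mTg replicates 2, 3 and 4, and with only the 10 arrays of the comparison (adjusted p up to 0.0964). Cct8 (-0.11 ± 0.06), Cct3 (-0.03 ± 0.06) and Cct6b (-0.06 ± 0.07), known mainly from testis, were not called. The count of 5 lower was the same after quantile normalization and after centring each array, and it was 3 without WT replicate 2 and 3 without PGC-1alpha-mTg replicate 3. In NCoR1-MKO 0 of 8 were called, and Cct2 changed by 0.00 ± 0.04.

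Among the partners of the chaperonin, 6 of 10 measured genes fell and 0 rose in PGC-1alpha-mTg, with a median of -0.18. Tcp1, itself the first subunit of CCT, is counted in this list because its symbol lies outside the pattern, and it fell by 0.21 ± 0.04. Prefoldin, which hands actin and tubulin to CCT, was lower in Vbp1 (-0.32 ± 0.07), Pfdn1 (-0.23 ± 0.06) and Pfdn5 (-0.19 ± 0.05). In NCoR1-MKO 0 of the 10 were called, and the smallest p belonged to Pdcl3, a phosducin-like helper of CCT, at -0.08 ± 0.04.

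Of 9 genes listed as well-known HSF1 targets, 7 were measured with a symbol of their own. Hsph1, Hsp90aa1 and Dnaja1 fell in PGC-1alpha-mTg, 0 rose, and Hspa1a, Hspa8, Dnajb1 and Hspb1 were not called. The probe set shared by Hspa1a and Hspa1b, outside this count, fell by 0.35 ± 0.06. The list is a short choice. It leaves out, for example, Hspd1, Hspe1 and Bag3, which rose, and Hspb8 and Chordc1, which fell. The median was -0.07. After quantile normalization Hsph1 and Hspa8 were the 2 called lower and the median was -0.15. Hsph1 was the 1 target still called without WT replicate 1, PGC-1alpha-mTg replicate 1 or PGC-1alpha-mTg replicate 3, with only the 10 arrays of the comparison and with array weights. Of the heat shock factors themselves, Hsf2, Hsf4 and Hsf5 were measured, and 2 of the 3 fell. Hsf2 fell by 0.41 ± 0.07 (adjusted p = 3.07e-05) and Hsf4 by 0.29 ± 0.06 (adjusted p = 0.000826), while Hsf5 stood at 0.13 ± 0.06 and the factor-binding protein Hsbp1 at -0.03 ± 0.04. Hsf1 is not analysed here. In NCoR1-MKO neither the 7 targets nor the 3 factors held a call, and Hsf4, which had the smallest p of the factors, stood at -0.08 ± 0.06.

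The promoters were then searched on both strands for the 2 forms of the heat shock motif pair, which can overlap each other. Of the 76 members 63 had a promoter in the RefSeq table, and 16 of these, or 25.4%, held GAANNTTC or TTCNNGAA in at least 1 promoter. Among all tested genes with a promoter the share was 15.4%. Of the members lower in PGC-1alpha-mTg 7 of 17 held a match (41.2%). These were Cct2, Cct5, Cct6a, Dnaja1, Hspb3, Hspb8 and Hsph1, and the calls of Cct5, Dnaja1 and Hspb3 were lost in some settings. Of the members higher 1 of 12 held a match (8.33%), Dnajc27, and of those not called 8 of 34 (23.5%), among them Hspa1a, Hspb1 and Hspb6. These shares are a description of the letters in windows of 300 bases. The share among all genes lower in PGC-1alpha-mTg was not counted. The ER stress element, the motif of the unfolded protein response, matched in Dnajc3, Hsp90b1 and Hspa5, that is in 4.76% of members and 0.134% of tested genes. Dnajc3 fell in PGC-1alpha-mTg, and the other two were not called. AAGGTCA, the nuclear receptor motif that estrogen-related receptors favour, was found in 3.17% of members and 4.48% of tested genes, and in 0 of the 12 members that were higher.

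The response differed between the models for 20 of the 76 members, or 26.3%, beside 15.2% of all genes. The change in PGC-1alpha-mTg was the more positive in 9 and the more negative in 11. For Hspa1l the transgenic change minus the knockout change was -1.37 ± 0.09 (adjusted p = 1.28e-09). It was 0.87 ± 0.08 for Dnajc28, 0.77 ± 0.10 for Hspa4l, 0.70 ± 0.06 for Dnajc15 and 0.62 ± 0.06 for Dnajc27. It was -0.67 ± 0.10 for Hsph1, -0.44 ± 0.08 for Hspb2 and -0.42 ± 0.08 for Hspb8. Only 2 members were called in NCoR1-MKO, which left little room for calls in both models. Dnaja3 was the only one called in both, and no member was called in opposite directions. Each model had its own controls.

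The wider proteostasis network was followed through 91 measured genes of 94 listed. In PGC-1alpha-mTg 22 rose and 27 fell, which is 53.8% called, beside 28.0% of all genes and 45.6% of those outside the dimmest 40 percent. In NCoR1-MKO 4 rose and 0 fell, or 4.4%, beside 2.63% of all genes. In the mitochondrial list 11 of 17 rose and 0 fell in PGC-1alpha-mTg, with a median of 0.26. Hspa9, the matrix HSP70, rose by 0.61 ± 0.04 (adjusted p = 4.56e-11). Hspd1 and Hspe1, the mitochondrial chaperonin and its lid, whose starts lie 95 bases apart, rose by 0.50 ± 0.06 and 0.25 ± 0.06. The proteases Afg3l2 (0.56 ± 0.04) and Htra2 (0.55 ± 0.05) and the Hspa9 exchange factor Grpel1 (0.49 ± 0.05) rose too. In NCoR1-MKO Afg3l2 rose by 0.18 ± 0.04 and Grpel1 by 0.18 ± 0.05, and Hspa9 at 0.13 ± 0.04 was not called (adjusted p = 0.0877). With only the 10 arrays of the comparison in the fit, the calls of Afg3l2 and Grpel1 were lost (adjusted p = 0.0515 and 0.0739). That of Grpel1 was also lost without any 1 of CON replicates 1, 3, 4 and 5, NCoR1-MKO replicates 3, 4 and 5 or WT replicate 3, and with each array centred (adjusted p up to 0.122).

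**Figure D4:**
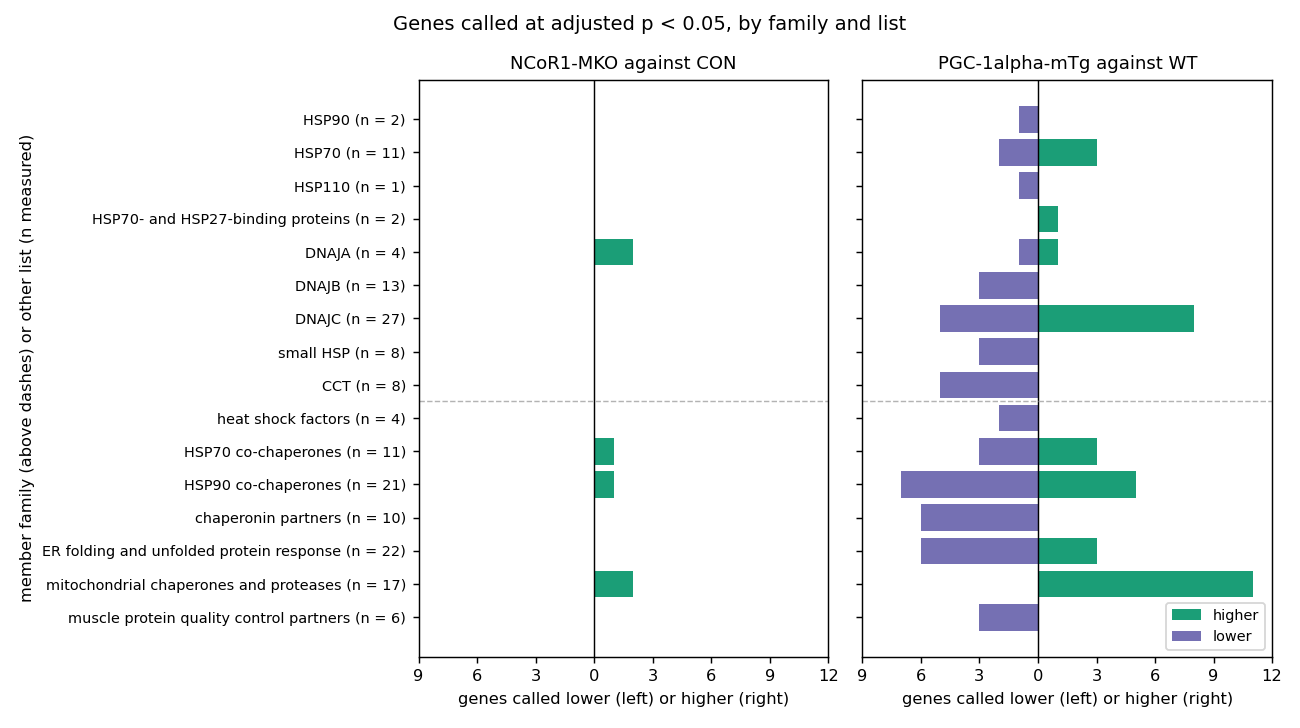
Number of genes called lower (bars to the left) and higher (bars to the right) at an adjusted p under 0.05 in each member family and in each list of other proteostasis genes, for NCoR1-MKO against CON and PGC-1alpha-mTg against WT, with the number measured beside each name. In PGC-1alpha-mTg the mitochondrial list reaches 11 to the right and 0 to the left. The bars of CCT (5) and its partners (6, with the CCT subunit Tcp1 among them) extend to the left alone.

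The co-chaperones outside the mitochondria moved both ways. Of 11 HSP70 co-chaperones 3 rose and 3 fell in PGC-1alpha-mTg. Bag1 (0.30 ± 0.05), an exchange factor, and Stub1 (0.20 ± 0.05), the ubiquitin ligase that tags HSP70 clients, rose. Sil1 (-0.41 ± 0.05), the exchange factor of Hspa5, and St13 (-0.32 ± 0.06), which links HSP70 to HSP90, fell. Bag3, the partner of Hspb8, rose by 0.17 ± 0.04 in PGC-1alpha-mTg, where Hspb8 fell. It also rose in NCoR1-MKO, by 0.19 ± 0.04 (adjusted p = 0.0132), a call lost with only the 10 arrays of that comparison (adjusted p = 0.0555). Of 21 HSP90 co-chaperones 5 rose and 7 fell. Among them Ahsa2, a relative of the HSP90 ATPase activator, fell by 0.40 ± 0.06, Sugt1 by 0.38 ± 0.06, Chordc1 by 0.32 ± 0.07 and Unc45b, the myosin chaperone of muscle, by 0.32 ± 0.06. The activator itself, Ahsa1, rose by 0.19 ± 0.05. Cdc37l1 (0.24 ± 0.05), Ppp5c (0.23 ± 0.04) and Cdc37 (0.20 ± 0.04) rose as well. Itgb1bp2, which is the muscle protein melusin, rose in NCoR1-MKO by 0.27 ± 0.05 (adjusted p = 0.00419) and in PGC-1alpha-mTg by 0.19 ± 0.05.

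In the ER list 3 of 22 rose and 6 fell in PGC-1alpha-mTg. Among all genes outside the dimmest 40 percent, 45.6% were called in either direction. Xbp1, a transcription factor of the unfolded protein response, fell by 0.34 ± 0.04 (adjusted p = 3.47e-07). Sdf2 (-0.29 ± 0.06), Creld2 (-0.24 ± 0.06) and Sel1l (-0.23 ± 0.04), which serves ER-associated degradation, also fell. In NCoR1-MKO 0 of 22 were called, and Atf6 at -0.11 ± 0.05 had the smallest p. Of 6 partners in muscle protein quality control 3 fell. They were Sqstm1 (-0.41 ± 0.04), the autophagy receptor p62, and the Z-disc proteins Synpo2l (-0.38 ± 0.06) and Synpo2 (-0.14 ± 0.04). The call of Synpo2 was lost without any 1 of WT replicates 1, 2 and 4 or PGC-1alpha-mTg replicates 2 and 4, and with only the 10 arrays of the comparison (adjusted p up to 0.0784). Desmin and filamin C, whose genes are Des (-0.09 ± 0.04) and Flnc (-0.09 ± 0.06), were not called.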

How the data were processed

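RNA of 20 gastrocnemius samples had been hybridised to Affymetrix gene arrays, 1 array a sample, per the labels. The deposited values are log2 expression values made by the authors with RMA, and the submitters' processing notes also name Partek. No version of either, genome build or probe annotation is given in the sources used here, and the log base is the one RMA uses. Names of probe sets come from the platform's annotation. Of 35556, 21789 had 1 symbol and were used, the brightest a gene over all arrays, which left 19938 genes with no filter on dim ones. The chromosome beside a probe set is that of the genes whose probe sets have the nearest numbers, 10 on each side.

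The means of the 4 groups were fitted to all 20 arrays in R 4.3.3 with limma 3.58.1 (lmFit, contrasts.fit, eBayes). Tests were two-sided, with calls at a Benjamini-Hochberg adjusted p under 0.05, adjusted across the tested genes. The contrasts were NCoR1-MKO minus CON, PGC-1alpha-mTg minus WT and their difference. The fit was tested on simulated data. Of changes of 0.2 it recovered 38% in NCoR1-MKO against CON and 26% in PGC-1alpha-mTg against WT. Of changes of 0.5 it recovered 98% and 94%. An array has no sequencing depth, so its precision rests on 5 arrays a group. Samples were grouped by their titles.

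The members and gene lists were chosen with earlier results of these data known. Values of every array are given for all members called in NCoR1-MKO, the 8 largest called rises and the 8 largest called falls in PGC-1alpha-mTg, the 4 largest called differences in each direction, and 1 member of any family not yet covered. Of the other lists, up to 4 called genes a comparison are named, or, in a list without calls, the gene of lowest p. Beyond this rule, and after their values were seen, the array values of Hspa1a, Hspa8 and Cct2 and of the probe set shared with Hspa1b were added. So were Cryab, Des, Flnc, Hspe1, Ahsa1, Cdc37, Cdc37l1 and Ppp5c, and the second model's value for genes named in the first. Promoters were matched by symbol to a RefSeq table of 32851 promoters on GRCm38.p6.

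The alternatives were quantile normalization over all arrays, centring of each array, a filter on dim genes, averaging the probe sets of a gene, testing every probe set, fitting only the 10 arrays compared, eBayes with a trend and robust prior, array weights, the replicate number as a block and leaving out each array. The probe set at the gene's own chromosome was an alternative chosen after seeing the data.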

Additional observations from a re-analysis of the deposited data

Results flagged for a closer look

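In 3 of 92 sets of 5 arrays (3.26%), those of the members named by the rule and of Hspa1a, Hspa8 and Cct2, 1 array lay far from the other 4 by Dixon's test. Chance gives such an array in about 1 of 20 sets. Hspa4l was highest in NCoR1-MKO replicate 5, at 6.65 with the next array at 6.49. Dnajc15 was highest in the same array, at 9.66 with the next at 9.57. Hspa2 was lowest in NCoR1-MKO replicate 2, at 6.64 with the next at 6.99.

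The change in PGC-1alpha-mTg minus the change in NCoR1-MKO differed from 0 for 20 members by limma's test of that difference, adjusted over all genes. It was above 0 for 9. These were Dnajc28 (0.87), Hspa4l (0.77), Dnajc15 (0.70), Dnajc27 (0.62), Dnaja3 (0.40), Hspa2 (0.39), Dnajc25 (0.31), Hspbp1 (0.26) and Dnajc6 (0.25). It was below 0 for 11. Among HSP70 and HSP110 members these were Hspa1l (-1.37) and Hsph1 (-0.67). Among small heat shock proteins they were Hspb2 (-0.44), Hspb8 (-0.42) and Hspb3 (-0.38), where Hspb3 stood at 0.18 in NCoR1-MKO and -0.19 in PGC-1alpha-mTg. Among DNAJ proteins they were Dnajc1 (-0.42), Dnajc13 (-0.33), Dnajb5 (-0.32), Dnajb2 (-0.23) and Dnajb12 (-0.18), and in CCT it was Cct2 (-0.25). The adjusted p nearest the threshold belonged to Dnajb12, at 0.0465, and this call was lost after quantile normalization (0.135) and without any 1 of 14 arrays. The 6 arrays without which it held were CON replicate 4, NCoR1-MKO replicate 5, WT replicates 4 and 5 and PGC-1alpha-mTg replicates 1 and 3. The call of Dnajc6 was lost without any 1 of CON replicates 1, 2 and 4, NCoR1-MKO replicates 1 and 3, WT replicates 1 and 5 or PGC-1alpha-mTg replicate 3 (adjusted p up to 0.0683). That of Dnajc13 was lost without CON replicate 4, NCoR1-MKO replicate 1 or PGC-1alpha-mTg replicate 2 or 3 (up to 0.0577), and that of Dnajb2 after quantile normalization (0.0584).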

How the results depend on the processing

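Of the 58 calls on genes picked by the naming rule 52 were kept in all alternatives that could be run and with each array left out in turn, 6 were lost in some and 0 reversed. The 6 were Dnaja4, Bag3, Grpel1 and Afg3l2 in NCoR1-MKO, and Hsp90aa1 and Synpo2 in PGC-1alpha-mTg. In NCoR1-MKO the 2 members called became 1 with each array centred, with only the 10 arrays of the comparison and with the replicate block, and 1 to 2 with single arrays left out. The other proteostasis genes called there, 4 in all, became 1 with only the 10 arrays and 1 with the replicate block, and 3 to 5 with single arrays left out. Of the 34 members called in PGC-1alpha-mTg, 26 were called in every setting and 0 reversed. The 8 lost in some were Hsp90aa1, Dnaja1, Dnajc7, Dnajc14, Dnajc21, Hspb3, Cct5 and Cct7, of which Dnaja1, Dnajc7, Dnajc21, Cct5 and Cct7 were lost with the replicate block, which left 3 CCT subunits called. Of the 20 differences between the models, those of Dnajb2, Dnajb12, Dnajc6 and Dnajc13 were lost in some. In PGC-1alpha-mTg 29 to 38 members were called with single arrays left out, against 34 with all of them, and 29 with the replicate block. For the other proteostasis genes it was 46 to 50 against 49, and for members whose response differed 17 to 26 against 20. Array weights gave 26 for the latter. The deviations of same-numbered arrays correlated from -0.132 to 0.04 for CON with NCoR1-MKO. For WT with PGC-1alpha-mTg they correlated at 0.196, 0.115, -0.232, 0.107 and 0.085, and 2 of the 5 numbers matched best with themselves. Not every pair exceeded 0.1 and no label ties the numbers together, so they were not taken to pair samples. The signal over background of a probe set is not known, and the dimmest members have little room to fall.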
